A study of Homo sapiens with 4 samples.

Results

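The genes described here encode chaperones of the endoplasmic reticulum (ER) and parts of the machinery that removes misfolded proteins from it, called ER-associated degradation (ERAD). They are HSPA5, HSP90B1, DNAJB9, DNAJC3, SDF2L1, PDIA4, HERPUD1, SEL1L, EDEM1 and XBP1, 10 protein-coding genes picked by name out of the 56303 in the deposited count table. RNA was sequenced from the human bladder cancer lines T24T and EJ after transfection with the circular RNA hsa_circ_0008399 or with the vector alone. This gave 4 groups of 1 library each: T24T circ, T24T vector, EJ circ and EJ vector. T24T is a metastatic variant of the T24 line, and EJ stocks are known in cell line registers as relatives of T24, so the lines may not be independent of each other. The series asks which genes change with the circular RNA, which has no value of its own in a table with 1 value per gene.

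The ER folds secreted and membrane proteins. HSPA5 (BiP) holds unfolded chains there and, by binding the sensors IRE1, PERK and ATF6, keeps the unfolded protein response (UPR) silent until its clients increase. Active ATF6 and the spliced form of XBP1 then switch on chaperone and ERAD genes through the ER stress response element (ERSE) and its variant ERSE-II, while PERK acts through ATF4 and CHOP.

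In the count table's hg38 coordinates, HSPA5 spans chr9:125234853-125241330, PDIA4 chr7:149003062-149028641, XBP1 chr22:28794555-28800597 and SEL1L chr14:81471549-81533861 on the minus strand. On the plus strand lie HSP90B1 at chr12:103930107-103953645, DNAJB9 at chr7:108569568-108574850, DNAJC3 at chr13:95677139-95794989, SDF2L1 at chr22:21642261-21644298, HERPUD1 at chr16:56932048-56944863 and EDEM1 at chr3:5187646-5219957. The table's gene lengths are those of merged exons, UTRs included.

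Library totals lay between 14703455 and 18057768 counts, and all 10 genes passed the filter on low counts that kept 17689 genes. Markers of leukocytes, endothelium and fibroblasts were close to absent, each list of 3 summing to at most 0.116 RPKM in any library, with PTPRC, CD3E and DCN at 0 in all 4 libraries. Of markers of the labelled tissue, the keratins KRT7, KRT8 and KRT18 and the basal markers CD44 and EGFR were abundant. UPK3A and KRT5 were at 0, GATA3, CDH1 and KRT14 had at most 3 counts, and KRT19 and KRT20 had at most 4. Summed over 6 epithelial markers the level was 416 RPKM in T24T circ against 395 RPKM in T24T vector, and 259 RPKM in EJ circ against 223 RPKM in EJ vector. Summed over 4 basal markers it was 83.0 RPKM in T24T circ against 100 RPKM in T24T vector, and 64.5 RPKM in EJ circ against 69.5 RPKM in EJ vector. Nearly all of that sum was CD44 and EGFR, since the basal keratins KRT5 and KRT14 were at or near 0. Summed over 3 mesenchymal markers it was 118 RPKM in T24T circ against 147 RPKM in T24T vector, and 152 RPKM in EJ circ against 158 RPKM in EJ vector. The basal and mesenchymal sums were lower in circ within each line and the epithelial sum was higher, but not every marker moved that way. KRT7 made up most of the epithelial gap, with 110 RPKM in T24T circ against 88.3 in T24T vector, and 142 RPKM in EJ circ against 109 in EJ vector. KRT8 and KRT18 were level in T24T, EPCAM was lower in circ in both lines, and CD44 in EJ was 36.9 RPKM in circ against 34.8 in vector. Of the mesenchymal markers, VIM and CDH2 were lower in circ in both lines and ZEB1 was higher. ZEB1 had 3.51 RPKM in T24T circ against 2.98 in T24T vector, and 6.76 in EJ circ against 6.47 in EJ vector. Summed over 7 luminal markers the level was 4.50 RPKM in T24T circ against 3.59 in T24T vector, and 3.22 RPKM in EJ circ against 3.45 in EJ vector. Their part in the results below was not tested. Because these are bulk libraries, fewer cells that express a gene and less RNA per cell cannot be told apart.

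RefSeq promoters (250 bases before to 50 after the transcript start, GRCh38.p14) were found for all 10 genes, with 2 promoters each for PDIA4 and XBP1. ERSE, searched as CCAAT and CCACG with any 9 bases between them on both strands, was present in HSPA5, HSP90B1 and XBP1, and in 0.0769% of all 35116 promoters. ERSE-II, searched on both strands as ATTGG and CCACG with any 1 base between them, was present in HERPUD1 and SDF2L1, and in 0.0541% of all promoters. The stretches that hold the elements are printed 5′ to 3′ along the gene's strand, with the element in capitals. The first is the region upstream of HSPA5, the gene with the smallest adjusted p of the 10, at chr9:125241344-125241593 on the minus strand. HSP90B1 holds 1 element on each strand, at chr12:103930206-103930244 and chr12:103930311-103930349 (plus strand); the count table's model of the gene begins upstream of both. The others lie at chr22:28800593-28800631 (XBP1, minus strand), chr16:56932015-56932045 (HERPUD1, plus strand) and chr22:21642104-21642134 (SDF2L1, plus strand, with the element on the reverse strand).
HSPA5: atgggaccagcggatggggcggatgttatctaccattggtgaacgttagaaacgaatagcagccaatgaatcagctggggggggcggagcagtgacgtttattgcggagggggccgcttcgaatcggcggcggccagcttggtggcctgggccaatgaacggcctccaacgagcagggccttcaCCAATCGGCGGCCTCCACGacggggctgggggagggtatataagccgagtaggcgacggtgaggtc
HSP90B1, forward: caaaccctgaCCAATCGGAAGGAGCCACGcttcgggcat
HSP90B1, reverse: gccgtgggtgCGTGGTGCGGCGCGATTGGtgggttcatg
XBP1: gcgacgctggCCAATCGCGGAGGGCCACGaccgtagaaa
HERPUD1: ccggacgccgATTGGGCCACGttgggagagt
SDF2L1: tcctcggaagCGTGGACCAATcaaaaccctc

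With 1 mismatch allowed, ERSE was found in 7 of the 10 genes, adding DNAJC3 and SEL1L to those with an exact ERSE and to HERPUD1 and SDF2L1, against 1.55% of all promoters with up to 1 mismatch. In SDF2L1 this match overlaps the ERSE-II. The DNAJC3 match, at chr13:95676994-95677032 on the plus strand, is shown because DNAJC3 was among the genes called below.
DNAJC3: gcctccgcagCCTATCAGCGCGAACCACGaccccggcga

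DNAJB9, PDIA4 and EDEM1 had no match within 1 mismatch, and neither the UPRE core TGACGTGG nor the cyclic AMP element TGACGTCA was found in any of the 10, against 0.729% and 1.85% of all promoters. A match describes the letters only.

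**Figure D1:**
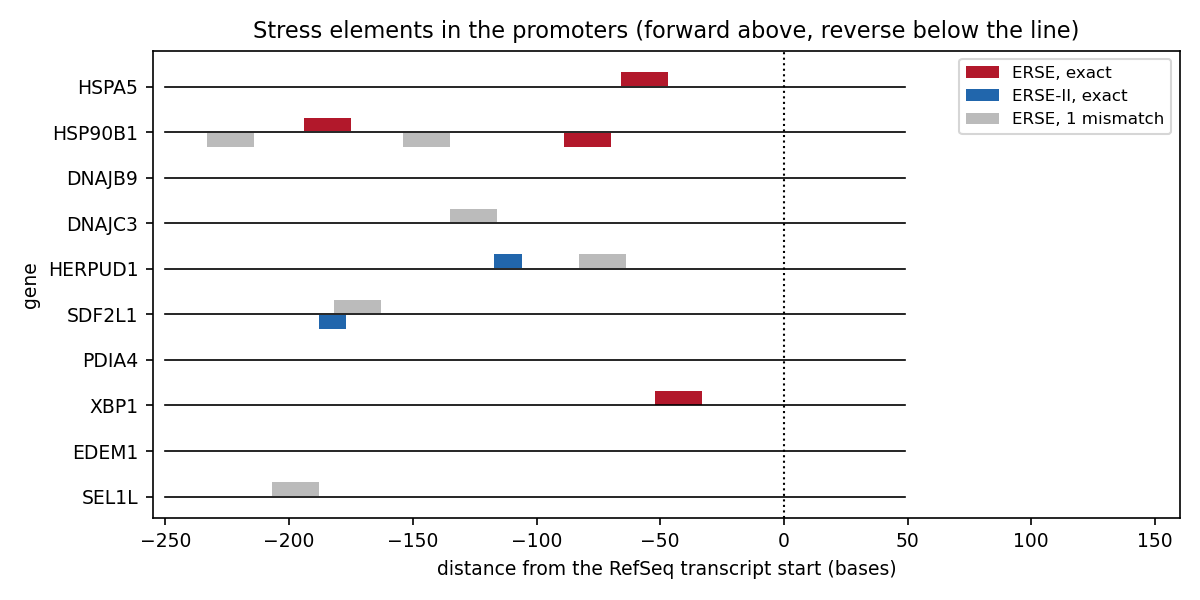
Position of ERSE and ERSE-II in the RefSeq promoter of each gene, as distance from the transcript start in bases; boxes above a line are on the gene's strand and boxes below it on the other. Exact elements (red and blue) stand upstream of HSPA5, HSP90B1, HERPUD1, SDF2L1 and XBP1, and grey boxes have 1 mismatch.

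Levels between genes were compared as the authors' RPKM, which are per length. HSP90B1, the HSP90 paralog of the ER (GRP94), was the most abundant in every library, with 522 RPKM in T24T circ, 432 in T24T vector, 465 in EJ circ and 410 in EJ vector. PDIA4, a disulfide isomerase, followed with 259 to 344 RPKM, and HSPA5 with 123 to 351 RPKM. PDIA4 stood above HSPA5 in 3 libraries and just below it in T24T circ, so the order of these neighbours is not set beyond the spread. XBP1 (24.7 to 36.2 RPKM) and SDF2L1 (18.2 to 23.9 RPKM) came next without overlap. DNAJB9, SEL1L, HERPUD1, EDEM1 and DNAJC3 lay between 2.34 and 9.47 RPKM with overlapping ranges. Together the 10 genes took 0.526% of all counts in T24T circ (95% Wilson interval 0.523 to 0.529) against 0.396% in T24T vector (0.393 to 0.399). The share was 0.405% in EJ circ (0.402 to 0.408) against 0.352% in EJ vector (0.349 to 0.355). These and all other intervals cover counting error only. The summed share is mostly that of the most abundant genes. HSPA5 alone took 0.137% of counts in T24T circ against 0.0664% in T24T vector, and 0.0731% in EJ circ against 0.0479% in EJ vector.

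**Figure D2:**
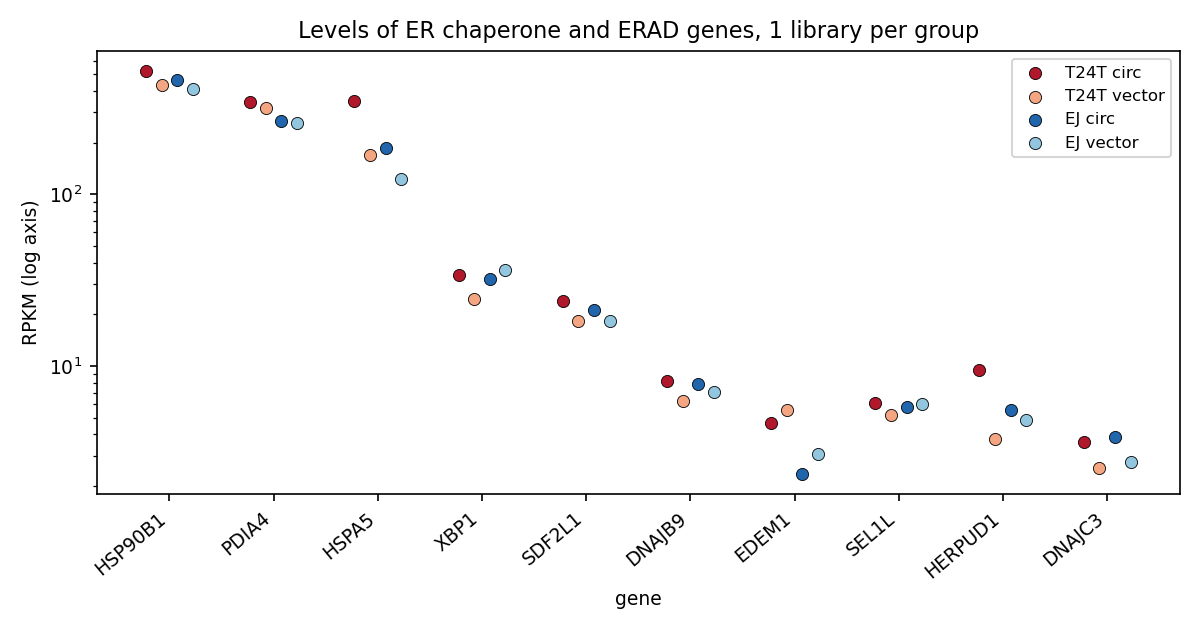
RPKM of each gene in each of the 4 libraries, on a log axis; each point is 1 library and there are no replicates within a group. HSP90B1, PDIA4 and HSPA5 lie above 100 RPKM and the T24T circ point stands apart from the other 3 for HSPA5 and HERPUD1.

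The question of the series is what differs in circ against vector. Of the 10 genes, 4 rose with circ over both lines and 0 fell: HSPA5, HERPUD1, DNAJC3 and HSP90B1. The test was edgeR's quasi-likelihood fit of all 4 libraries, blocked by line, with Benjamini-Hochberg adjustment over all 17689 genes at 0.05. It called 7.13% of all tested genes higher and 5.56% lower. At an unadjusted p under 0.05, 6 of the 10 were higher and 1, EDEM1, was lower. At that cutoff 2407 of the 17689 tested genes were higher and 2160 lower. DESeq2 called HSPA5 alone, where it called 1.02% of all tested genes higher and 0.865% lower. The median log2 fold change of the 10 was 0.26, against 0.0018 over all tested genes. Only 1 residual degree of freedom supports this fit, so each error (SE) rests mostly on the spread pooled over genes. Nothing in the labels says that any group was repeated in separate cultures.

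HSPA5 had 24783 counts in T24T circ against 11190 in T24T vector, and 10746 in EJ circ against 7488 in EJ vector. It was higher in circ within each line, and the highest of the 4 libraries was T24T circ. The fold of TMM-scaled counts was 2.10 in T24T (exact 95% counting interval 2.06 to 2.15) and 1.53 in EJ (1.49 to 1.58). Over both lines the log2 fold change was 0.85 ± 0.09 (SE of the pooled fit, edgeR adjusted p = 6.27e-08), the 26th smallest p of all genes tested. This SE, like those below, is not the spread between the lines. The log2 ratios of HSPA5 in the 2 lines had an SD of 0.32 (n = 2 lines). HSP90B1 had 44226 counts in T24T circ against 34152 in T24T vector, and 32055 in EJ circ against 30046 in EJ vector. Its folds were small in both lines, 1.23 in T24T (1.21 to 1.25) and 1.14 in EJ (1.12 to 1.16), with a log2 fold change of 0.24 ± 0.08 (edgeR adjusted p = 0.0313). That call was lost with DESeq2 (adjusted p = 0.244) and with a stricter filter on low counts (adjusted p = 0.0619). Pseudogene copies of HSP90B1 took at most 17 counts in any library.

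DNAJC3 (P58IPK), a J-domain co-chaperone that helps HSPA5 and was first described as an inhibitor of the kinase PKR, had 364 counts in T24T circ against 240 in T24T vector. In EJ it had 319 counts in circ against 242 in vector. The lines were close, with folds of 1.44 in T24T (1.22 to 1.70) and 1.41 in EJ (1.19 to 1.67). The log2 fold change was 0.51 ± 0.12 (edgeR adjusted p = 0.00487), lost with DESeq2 (adjusted p = 0.251). The other co-chaperones did not pass. DNAJB9 (ERdj4), which brings HSPA5 to the sensor IRE1, had 417 counts in T24T circ against 301 in T24T vector, and 326 in EJ circ against 315 in EJ vector (0.27 ± 0.12, edgeR adjusted p = 0.133). Its exons overlap those of THAP5 and PNPLA8 on the other strand over 6.45% and 3.49% of its length, and the use of strand in counting is not given in the sources used here. SDF2L1, a partner of the ER J-domain proteins DNAJB9 and DNAJB11 in chaperone complexes, had 475 counts in T24T circ against 337 in T24T vector, and 343 in EJ circ against 314 in EJ vector. Its log2 fold change of 0.33 ± 0.11 lay near the threshold (edgeR adjusted p = 0.0585), which it passed with RLE size factors (adjusted p = 0.0479).

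PDIA4 (ERp72), the disulfide isomerase of the group, had 20366 counts in T24T circ against 17509 in T24T vector, and 12891 in EJ circ against 13270 in EJ vector. After scaling, its folds were 1.10 in T24T (1.08 to 1.13) and 1.04 in EJ (1.01 to 1.06), and it did not pass (log2 fold change 0.10 ± 0.08, edgeR adjusted p = 0.462). Its log2 fold change was about the size of its SE.

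Among the ERAD genes, HERPUD1, a membrane protein that assembles the HRD1 ubiquitin ligase complex, had 882 counts in T24T circ against 328 in T24T vector. In EJ it had 422 counts in circ against 390 in vector. T24T circ was the highest library, at 50.4 TMM-scaled CPM, and T24T vector the lowest, at 19.7, with EJ circ at 28.2 and EJ vector at 24.3 between them. The fold was 2.55 in T24T (2.25 to 2.91) and 1.16 in EJ (1.01 to 1.33). Its call over both lines (0.80 ± 0.15, edgeR adjusted p = 0.000366; DESeq2 adjusted p = 0.566) rests mainly on T24T, where the log2 ratio was 1.35, against 0.21 in EJ.

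EDEM1, which directs misfolded glycoproteins to ERAD, was the 1 gene of the 10 below vector in both lines. It had 569 counts in T24T circ against 630 in T24T vector, and 233 in EJ circ against 325 in EJ vector. The log2 fold change of -0.29 ± 0.11 did not pass (edgeR adjusted p = 0.0816). An antisense gene, RP11-572B2.1, overlaps 9.66% of its exon length and had at most 26 counts. SEL1L, the adaptor of HRD1, had 1053 counts in T24T circ against 837 in T24T vector, and 809 in EJ circ against 901 in EJ vector (0.10 ± 0.10, edgeR adjusted p = 0.558). SEL1L was thus higher with circ in T24T and within its counting interval of vector in EJ, at 0.960-fold (0.872 to 1.06).

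XBP1, the transcription factor made active when IRE1 cuts its mRNA, had 1842 counts in T24T circ against 1260 in T24T vector. In EJ it had 1431 counts in circ against 1713 in vector. The lines went opposite ways beyond counting error, with folds of 1.39 in T24T (1.29 to 1.49) and 0.893 in EJ (0.832 to 0.959), and the log2 fold change over both did not pass (0.15 ± 0.10, edgeR adjusted p = 0.360). The stretch that IRE1 removes is annotated as an intron of 26 bases in 2 of the 7 GENCODE transcripts of XBP1, and both placements give the same joined sequence. It is printed in capitals within the mRNA, from chr22:28796084-28796189 on the minus strand (GRCh38), because a count per gene adds up the forms with and without it.
XBP1 mRNA: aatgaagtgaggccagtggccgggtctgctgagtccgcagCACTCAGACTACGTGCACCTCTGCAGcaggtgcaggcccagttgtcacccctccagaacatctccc

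The share of XBP1 mRNA that was spliced was not analysed here.

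**Figure D3:**
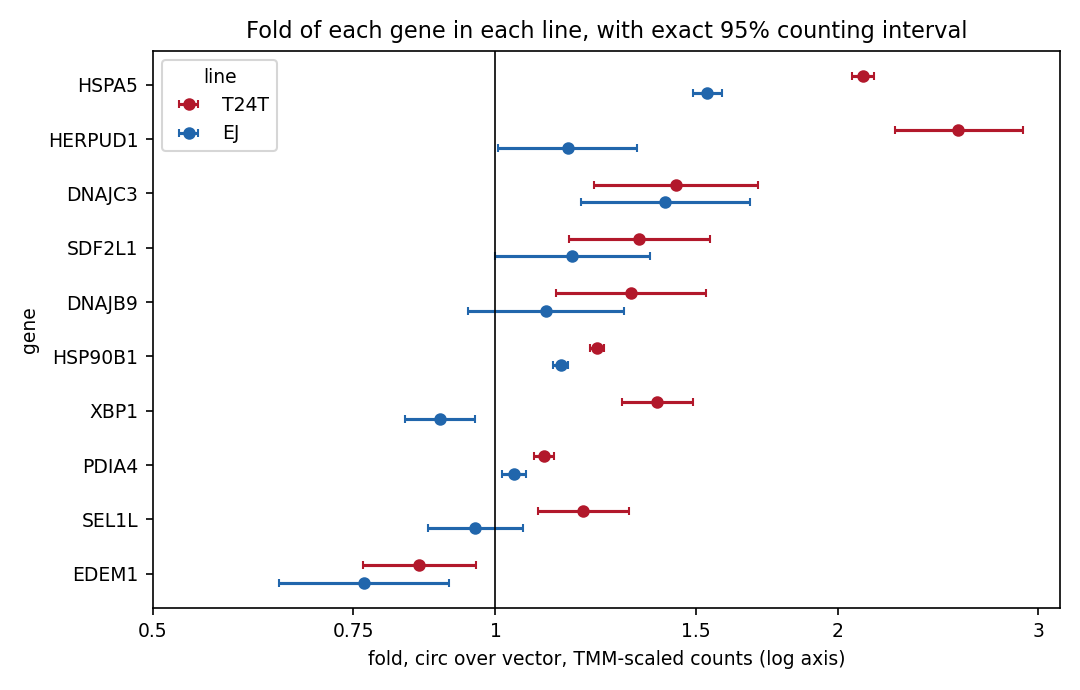
Fold of circ over vector for each gene in T24T (red) and EJ (blue), from TMM-scaled counts on a log axis; bars are exact 95% counting intervals and 1 library stands behind each group. HSPA5 and HERPUD1 pass 2-fold in T24T, DNAJC3 has near equal folds in both lines, and XBP1 lies on opposite sides of 1.

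Within the lines there is 1 library per group and no replicate check. In T24T 9 of the 10 genes had a log2 ratio above 0, with a median of 0.41 against 0.0082 over all tested genes. In EJ 7 were above 0, with a median of 0.17 against a median of 0 over all tested genes. In T24T 2 genes, HSPA5 and HERPUD1, were at least 1.5-fold higher in circ, where 7.76% of all tested genes were, and in EJ 1 gene, HSPA5, where 7.24% were. No gene of the 10 was 1.5-fold lower in either line, where 6.08% of all tested genes were in T24T and 6.05% in EJ. At 2-fold the count was 2 in T24T, against 2.52% of all tested genes, and 0 in EJ, against 2.26%. The log2 ratio was above 0 in both lines for 7 of the 10, as for 33.4% of all tested genes. HSPA5 thus was the 1 gene of the 10 past 1.5-fold in both lines, as were 2.51% of all tested genes.

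All 10 genes had the larger ratio in T24T, as did 51% of all tested genes. The fold in T24T exceeded that in EJ beyond the counting interval for HERPUD1, at 2.21 times (1.83 to 2.66), XBP1, at 1.55 times (1.40 to 1.72), and HSPA5, at 1.37 times (1.32 to 1.42). It did so as well for SEL1L, at 1.24 times (1.09 to 1.42), HSP90B1, at 1.08 times (1.05 to 1.10), and PDIA4, at 1.06 times (1.03 to 1.10). These 6 of 10 stand beside 11.5% of all tested genes. The comparison favours genes with many counts, where the interval is narrow, and counting error leaves out the spread between cultures. A test of the difference between the lines has no residual degree of freedom.

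**Figure D4:**
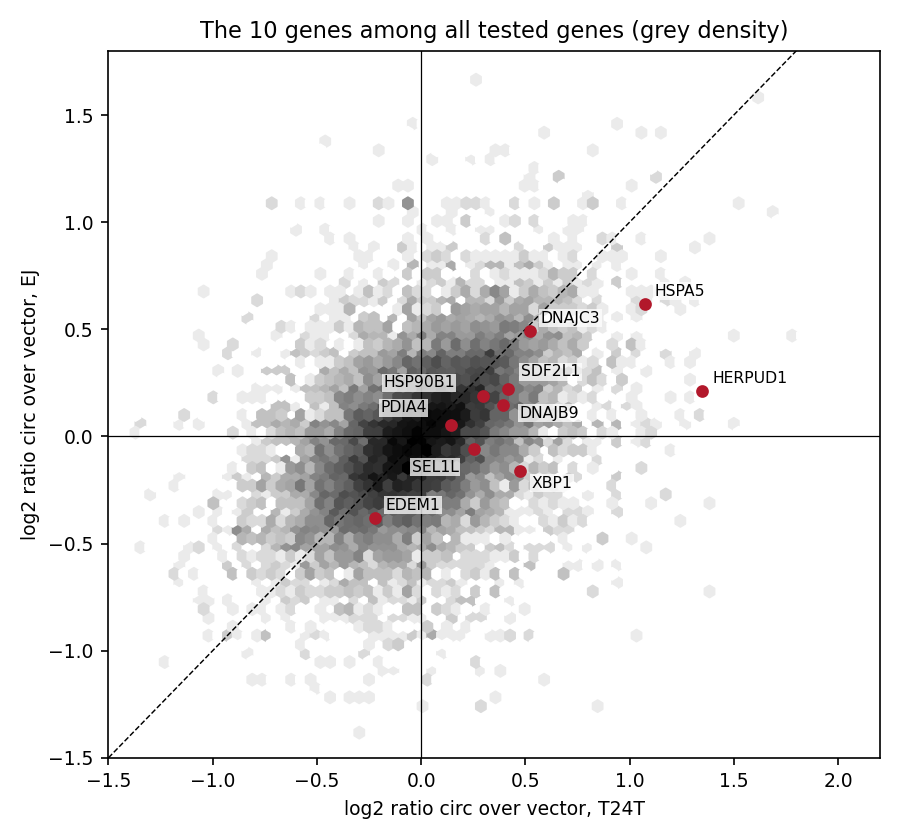
Log2 ratio of circ over vector in T24T (horizontal) and EJ (vertical) for the 10 genes (red) over the density of all tested genes (grey, darker for more genes on a log scale); 170 genes beyond the axes are not drawn. All 10 points lie below the dashed line of equal ratios, HERPUD1 and XBP1 farthest from it.

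T24T was also set against EJ, with transfection as the block in the same edgeR fit. Of the 10 genes 3 were higher in T24T and 0 lower, where 21.9% of all tested genes were called higher and 19.5% lower. At an unadjusted p under 0.05, 5 were higher and 0 lower. At that cutoff 4461 of the 17689 tested genes were higher and 4061 lower. DESeq2 called the same 3, where it called 10% of all tested genes higher and 8.15% lower. EDEM1 had the largest log2 fold change, 0.98 ± 0.11 (edgeR adjusted p = 1.14e-08). HSPA5 followed with 0.75 ± 0.09 (edgeR adjusted p = 2.15e-08) and PDIA4 with 0.39 ± 0.08 (edgeR adjusted p = 0.000132). For some genes the order of the lines differed between circ and vector libraries. HERPUD1 in T24T was 1.79 times EJ among circ libraries (1.59 to 2.01) and 0.811 times EJ among vector libraries (0.698 to 0.941). XBP1 was 1.10 times EJ among circ libraries (1.03 to 1.18) and 0.709 times among vector libraries (0.659 to 0.763). EDEM1 was higher in T24T in both, at 2.09 times (1.79 to 2.44) among circ libraries and 1.87 times (1.63 to 2.14) among vector libraries. HSPA5 was higher in both too, but by more among circ libraries, at 1.97 times (1.93 to 2.02), than among vector libraries, at 1.44 times (1.40 to 1.48). For PDIA4 the values were 1.35 and 1.27 times. Each line has only its circ and its vector library, which are not replicates of the line. Without the transfection block HSPA5 and PDIA4 did not pass. The log2 fold changes of DNAJB9 (0.01 ± 0.12) and SEL1L (-0.00093 ± 0.10) lay at 0 and turned sign with the scaling or filter.

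Other genes of the pathway, and paralogs of HSPA5 and HSP90B1 in other compartments, were counted in 7 lists. The lists were chosen with earlier results of these data known, and their genes were tested in the same fit of circ over vector. Of the 88 that could be tested 17 rose (19.3%) and 5 fell (5.68%), with a median log2 fold change of 0.03. The paralogs, which are not ER genes, gave 3 of the 17. Over all tested genes 7.13% were higher and 5.56% lower, with a median of 0.0018. At an unadjusted p under 0.05, 2407 of the 17689 tested genes were higher and 2160 lower. These values over all genes stand beside each list below. Of 13 further ER chaperones and co-chaperones, 5 rose (38.5%) and 0 fell, with a median log2 fold change of 0.25. At an unadjusted p under 0.05, 7 were higher and 1 lower, and DESeq2 called CANX alone. The lectin chaperone gene CANX (calnexin) rose by 0.42 ± 0.08 (edgeR adjusted p = 0.000440), SIL1, the nucleotide exchange factor of HSPA5, by 0.46 ± 0.09 (0.000713) and HYOU1 (GRP170), another such factor, by 0.34 ± 0.08 (0.00506). DNAJB11 (0.32 ± 0.08) and MANF (0.29 ± 0.08) made up the 5. Each of these had a log2 ratio between 0.22 and 0.61 in both lines.

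Of 12 ER oxidoreductases, which form and rearrange disulfide bonds, none rose and 1 fell (8.33%). That is near the shares over all tested genes, 7.13% higher and 5.56% lower, for a list this small. The gene that fell was PDIA5 (-0.42 ± 0.10, edgeR adjusted p = 0.00469), and the list's median was -0.14. At an unadjusted p under 0.05, 1 was higher and 3 lower, and DESeq2 called 0. TXNDC12 (-0.25 ± 0.09, edgeR adjusted p = 0.0639) and ERP29 (0.21 ± 0.09, 0.114) did not pass.

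Of 26 other ERAD genes 25 could be tested, DERL3 having at most 1 count, and 4 rose (16%) while 0 fell, with a median of 0.02. At an unadjusted p under 0.05, 4 were higher and 2 lower, and DESeq2 called DERL2 and FAF2. DERL2, a derlin of the retrotranslocation channel, rose by 0.58 ± 0.10 (edgeR adjusted p = 0.000199), FAF2, which recruits the ATPase p97, by 0.46 ± 0.08 (0.000311) and VIMP (now SELENOS), a selenoprotein that binds derlins and p97, by 0.48 ± 0.10 (0.00110). The fourth was AUP1 (0.34 ± 0.09). SYVN1, which encodes the ligase HRD1 itself, had 0.14 ± 0.09 (edgeR adjusted p = 0.296).

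Of 8 tested UPR sensor and protease genes none rose and 1 fell (12.5%), where 7.13% of all tested genes rose and 5.56% fell. At an unadjusted p under 0.05, 0 were higher and 2 lower. The fall was that of MBTPS1, the site-1 protease that cuts ATF6 and SREBP precursors (-0.42 ± 0.08, edgeR adjusted p = 0.000803), which DESeq2 called too. The sensors ERN1 (IRE1, 0.26 ± 0.15, edgeR adjusted p = 0.283), ATF6 (-0.11 ± 0.10, 0.541) and EIF2AK3 (PERK, -0.14 ± 0.10, 0.413) did not pass, nor did ATF6B (-0.19 ± 0.09, 0.170). Of 9 PERK arm genes, 4 rose (44.4%; PPP1R15A, ATF3, DDIT3 and ASNS) and CHAC1 fell, with a median of 0.13. The calls of ASNS and CHAC1 each rest mainly on 1 line: ASNS had log2 ratios of 1.58 in T24T and 0.13 in EJ (DESeq2 adjusted p = 0.628), and CHAC1 had 6 counts in T24T circ against 7 in T24T vector, and 18 in EJ circ against 68 in EJ vector. At an unadjusted p under 0.05 the counts were the same. PPP1R15A (GADD34), which restores translation by bringing a phosphatase to eIF2α, rose by 1.30 ± 0.08 (edgeR adjusted p = 1.74e-12) with log2 ratios of 1.23 in T24T and 1.36 in EJ. The transcription factor gene ATF3 rose by 1.98 ± 0.14 (2.92e-11) and DDIT3 by 1.23 ± 0.12 (3.94e-08), and DESeq2 called these 3. DDIT3 (CHOP) had log2 ratios of 1.60 in T24T and 0.85 in EJ. ATF4 had 0.02 ± 0.10 (edgeR adjusted p = 0.943), made of 0.34 in T24T and -0.31 in EJ, opposite signs as for XBP1.

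Of 14 translocon and signal peptidase genes, SEC62 rose (0.40 ± 0.09, edgeR adjusted p = 0.00182), and TRAM1 (-0.32 ± 0.10, 0.0251) and SSR2 (-0.31 ± 0.10, 0.0405) fell. That is 7.14% higher, close to the share over all tested genes, and 14.3% lower. The list's median was -0.03, 3 were higher and 3 lower at an unadjusted p under 0.05, and DESeq2 called 0. Of 7 paralogs of HSPA5 and HSP90B1 in other compartments 3 rose (42.9%) and 0 fell, with a median of 0.16. At an unadjusted p under 0.05, 4 were higher and 0 lower, and DESeq2 called 0. The mitochondrial HSPA9 rose by 0.28 ± 0.08 (edgeR adjusted p = 0.0154). The inducible HSPA1A and HSPA1B each rose by 1.13 (edgeR adjusted p = 2.68e-08 and 6.13e-08). These near-identical genes share reads and their separate counts are uncertain, so their calls are not independent. Of the list, 2 genes were past 2-fold in T24T, against 2.52% of all tested genes, and 0 in EJ, against 2.26%. The largest log2 ratio was 1.59 in T24T and 0.72 in EJ. The cytosolic chaperones HSPA8 (0.09 ± 0.08, edgeR adjusted p = 0.514), HSP90AA1 (0.16 ± 0.07, 0.158) and HSP90AB1 (0.08 ± 0.07, 0.555) did not pass.

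**Figure D5:**
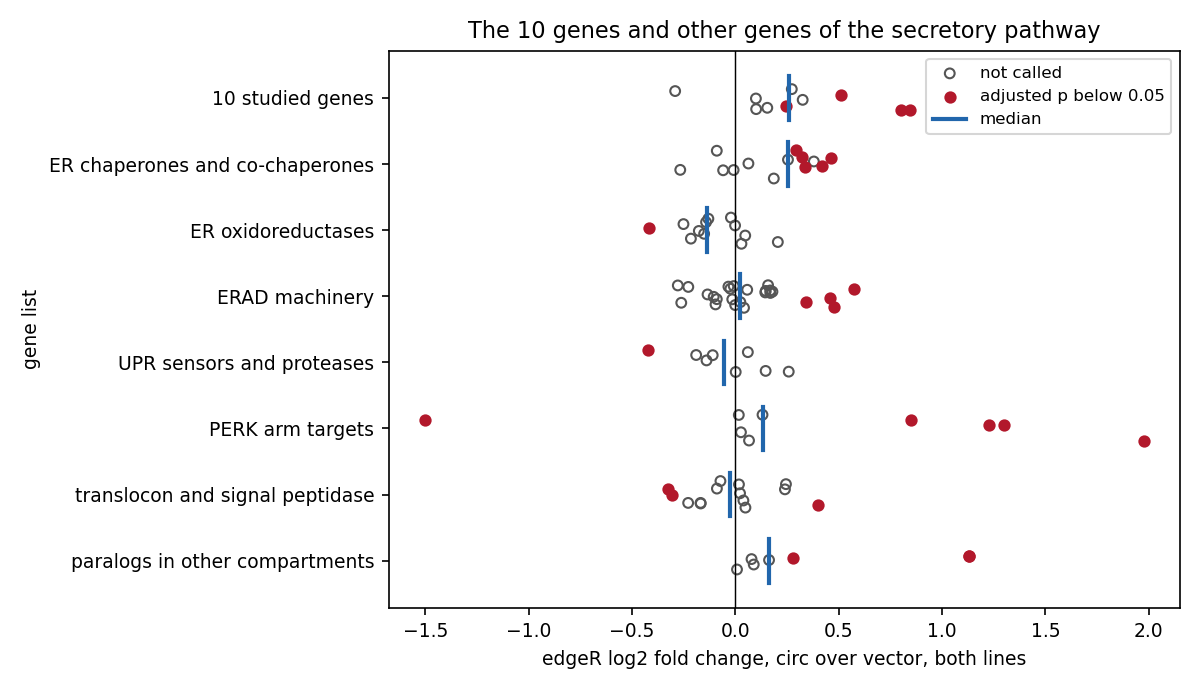
edgeR log2 fold change of circ over vector across both lines for the 10 genes and 7 lists of related genes; each point is 1 gene, filled where the adjusted p is below 0.05, and the blue bar is the list's median. The medians of the 10 genes (0.26) and of the other ER chaperones (0.25) lie above 0 and that of the ER oxidoreductases (-0.14) below it.

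The promoter elements were also read the other way round. Among tested genes, 29 had an exact ERSE or ERSE-II in a RefSeq promoter, and 5 of them rose: HSPA5, HERPUD1, HSP90B1, CANX and HYOU1. That is 17.2%, against 7.13% of all tested genes, but 3 of the 5 are among the 10 genes already described. Of the 24 holders outside the 10, 2 rose (8.33%), near the share over all tested genes, and 1 fell (4.17%, against 5.56%). The one that fell was TMEM120A (-0.37 ± 0.11, edgeR adjusted p = 0.0265). The median log2 ratio of the 29 was 0.05 in T24T and 0.03 in EJ. Holders such as CALR (0.06 ± 0.08, edgeR adjusted p = 0.660) and PDIA6 (-0.18 ± 0.08, 0.156), both ER folding genes, did not pass, so genes that hold the element had both called and uncalled values. TMEM120A, CALR and PDIA6 were chosen after their values were seen.

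The genes most like HSPA5 were sought among 8837 genes with a mean of 200 or more counts, by Euclidean distance of log2 CPM centred over the 4 libraries. The nearest were DENND2A (distance 0.18), SH3BGR (0.21), the clone-named transcript RP11-344N10.2 (0.24), RCAN1 (0.33) and ZNFX1-AS1_3 (0.38). Of the other 9 genes HERPUD1 was nearest, at 0.60 and rank 59, and XBP1 (1.16) and EDEM1 (1.18) were farthest. With 4 libraries this likeness describes a pattern of 4 values.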

How the data were processed

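Trimmomatic, HISAT2 and the genome build hg38 are named, without versions, in the submitters' processing notes; the counting tool, annotation and use of strand are not given in the sources used here. The authors deposited read counts for 56303 genes and RPKM for 29817 genes. The deposited RPKM could be recomputed from count, gene length and library total in 100% of cases, within a relative tolerance of 1e-06. Columns were matched to samples by their descriptions, which write T24 for T24T, and 0 sample columns were left out. Gene types come from GENCODE release 29.

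Genes with 10 or more counts in 1 library and 20 or more over all were tested on the counts with edgeR 4.0.16 (TMM, quasi-likelihood, terms for line and transfection, 30.5 prior degrees of freedom). Ratios within a line used a prior count of 2. Alternatives used DESeq2 1.42.0 and limma 3.58.1 in R 4.3.3. In simulated counts 100 changes of each size were planted, only in genes above a minimum mean count and equal in both lines. The spread was taken from the fit itself. The circ fit recovered 99% of the planted 2-fold and 66% of the 1.5-fold changes, with 9 false calls among 17417 genes. These rates do not cover genes whose ratio differs between the lines, such as HERPUD1 and XBP1. The members, lists and rules were chosen with earlier results of these data known. All 10 members are named, with the 3 genes of smallest adjusted p per list, a fixed set of UPR genes and the 5 genes nearest to HSPA5; others completing a count are named as such.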

Additional observations from a re-analysis of the deposited data

Results flagged for a closer look

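XBP1 had log2 ratios of circ over vector of 0.47 in T24T and -0.16 in EJ, opposite in sign, a difference of 0.63. SEL1L had 0.26 in T24T and -0.06 in EJ, a difference of 0.31, with an EJ fold within its counting interval of 1 (0.872 to 1.06). Both genes differed in sign between the lines and were not the 2 largest differences. Those of HERPUD1 (1.14) and HSPA5 (0.45), with the same sign in both lines, exceeded that of SEL1L. None of these differences was tested against replicates, since each group has 1 library.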

How the results depend on the processing

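The members' count called higher with circ, 4 in the main test, was 1 with DESeq2. With limma on log2(RPKM + 1) it was 0 (5 higher at an unadjusted p under 0.05), where limma called 0 of all 17689 genes (3588 unadjusted). Without the cell line block it was 0 (1 unadjusted), where edgeR called 0 genes in all (397 unadjusted). In both of these settings the 0 thus holds for every gene. The members' count ranged from 3 to 5 under the other normalizations, filters and limma-voom, HSPA5, DNAJC3 and HERPUD1 being called in each. It was 3 with 50 counts in each line, where 945 of 12463 tested genes were called higher. It was 5 with RLE size factors, where 1380 of 17689 were. The related lists, with 17 higher and 5 lower, gave 6 and 1 with DESeq2, and 3 were lower with 50 counts in each line. They gave 0 and 0 both with limma on RPKM and without the block, where no gene at all was called. For T24T over EJ, 3 members became 5 with no filter, where 3655 of 29817 tested genes were called higher. Without the transfection block 1 member, EDEM1, was higher, as were 1944 of 17689 tested genes, against 3870 in the main test. HSPA5 (edgeR adjusted p = 0.126) and PDIA4 (edgeR adjusted p = 0.0667) did not pass in that setting. At 2-fold the count in EJ fell to 0 and that in T24T stayed at 2. The medians within the lines ranged from 0.35 to 0.41 in T24T and from 0.15 to 0.17 in EJ over all scalings, prior counts and RPKM scales. For T24T over EJ, DNAJB9 turned sign with DESeq2 (-0.0046), RLE (-0.0017), library size alone (-0.0539), limma on log2(RPKM + 1) (-0.0498) and no filter (-0.0117), and SEL1L with 50 counts in each line (0.0225) and no block (0.0037); none of these passed. No paired analysis by replicate number was possible because the labels give none; cell line is the block. Leaving out any library leaves 1 line without its pair and no residual degree of freedom. The cause of these changes was not tested.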
